A study of Mus musculus with 12 samples.

Results

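Pnpla3 and 9 other genes of intracellular lipid breakdown were followed in mouse liver on a ketogenic diet, which is low in carbohydrate and high in fat, and on a control diet. They are Pnpla3, Pnpla2, Abhd5, G0s2, Lipe, Mgll, Lipa, Pnpla6, Pnpla7 and Pnpla8, taken by gene symbol from a count table of 27105 genes. All 10 were in the table. Total RNA of 6 livers on the ketogenic diet and 6 on the control diet was sequenced, and the series calls the livers biological replicates. The labels used here do not state what the diets contained, how long they were fed, or the strain, age, sex, feeding state and hour of collection of the mice. Libraries are named by diet and replicate number.

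Fat is stored in hepatocytes as triglyceride in lipid droplets and is broken down stepwise. PNPLA2, also known as adipose triglyceride lipase (ATGL), removes the first fatty acid, with ABHD5 (CGI-58) as its activator and G0S2 as its inhibitor. LIPE (hormone-sensitive lipase) acts mainly on diglyceride and MGLL on monoglyceride, while LIPA is the acid lipase that works inside lysosomes. PNPLA3 is a close relative of PNPLA2 that sits on lipid droplets, and its gene is known in mouse liver as one switched on by carbohydrate feeding and insulin through SREBP-1c and ChREBP. Not all members are triglyceride lipases: PNPLA6 and PNPLA7 are known as lysophospholipases of the endoplasmic reticulum, and PNPLA8 as a calcium-independent phospholipase of mitochondria and peroxisomes.

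Promoter sequences are shown for Pnpla3, its neighbour Pnpla5 and its close relative Pnpla2, the genes most discussed here. RefSeq windows from 250 bases before to 50 bases after the gene start (GRCm38.p6) are given 5′ to 3′, and their part in the levels of these genes was not tested. The regions, whose build need not be that of the deposited coordinates given further on, are chr15:84167566-84167865, plus strand, for Pnpla3, chr15:84123126-84123425, minus strand, for Pnpla5, and chr7:141454938-141455237, plus strand, for Pnpla2. Capitals mark matches, on either strand, to the letters of 4 motifs: the GC box GGGCGG, the CCAAT box, the E-box CACGTG and the forkhead letters GTAAACA.
Pnpla3: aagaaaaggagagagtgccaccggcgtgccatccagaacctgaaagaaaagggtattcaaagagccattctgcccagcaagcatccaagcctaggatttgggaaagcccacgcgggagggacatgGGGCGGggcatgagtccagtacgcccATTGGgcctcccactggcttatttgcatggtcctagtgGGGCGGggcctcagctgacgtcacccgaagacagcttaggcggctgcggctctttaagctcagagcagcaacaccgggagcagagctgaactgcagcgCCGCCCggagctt
Pnpla5: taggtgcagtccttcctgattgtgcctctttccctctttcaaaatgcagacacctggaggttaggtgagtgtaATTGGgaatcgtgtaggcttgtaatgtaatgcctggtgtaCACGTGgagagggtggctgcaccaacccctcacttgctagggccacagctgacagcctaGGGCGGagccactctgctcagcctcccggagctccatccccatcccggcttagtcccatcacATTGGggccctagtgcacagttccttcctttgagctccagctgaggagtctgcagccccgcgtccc
Pnpla2: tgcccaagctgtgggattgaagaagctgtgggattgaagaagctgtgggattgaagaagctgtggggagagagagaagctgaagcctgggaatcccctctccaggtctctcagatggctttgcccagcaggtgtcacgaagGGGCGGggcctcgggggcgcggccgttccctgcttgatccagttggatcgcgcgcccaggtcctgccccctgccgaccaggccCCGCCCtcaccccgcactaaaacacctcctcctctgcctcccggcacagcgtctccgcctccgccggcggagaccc

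The Pnpla3 window held 3 GC boxes, at -125, -61 and 38 relative to the gene start, and 1 CCAAT box on the minus strand at -99. The Pnpla5 window held 1 E-box at -137, 2 CCAAT boxes on the minus strand at -177 and -16, and 1 GC box at -78, and the Pnpla2 window 2 GC boxes at -109 and -26. Among the other members, windows of Pnpla7, Lipe and Mgll held both an E-box and, in the same or another window of that gene, the forkhead letters. Of 32817 such windows of all genes searched, 35.6% held a GC box, 37.4% a CCAAT box, 7.15% an E-box and 3.65% the forkhead letters. Also searched were TCACNCCAC, letters like those of a sterol regulatory element (in 1.24% of all windows), and direct repeats of AGGTCA spaced by 1 base (0.0396%) or by 4 bases (0.0152%). None of these 3 was found in a window of any of the 10 members, for which RefSeq gave 14 windows. Such a match or its lack describes only the letters in these windows.

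The libraries held between 30176580 and 33538910 counts. Ketogenic 4 stood apart from its group, with a median correlation of 0.951 to the other ketogenic libraries against 0.978 to 0.984 for the rest of that group. Its genes ran low with increasing transcript length (Spearman rho -0.496 across genes, against -0.309 to 0.312 in the other libraries). Of 13995 genes tested, 529 (3.78%) passed an adjusted p under 0.05, 328 (2.34%) higher and 201 (1.44%) lower on the ketogenic diet. Scaling by library size alone, which moves the median log2 fold change of all genes to 0.07, gave 448 higher and 127 lower. All adjusted p-values come from edgeR's quasi-likelihood test with Benjamini-Hochberg adjustment over all genes tested. Log2 fold changes are ketogenic over control ± SE, and levels in CPM, which are reads scaled to library size, are mean ± SD with n = 6 per diet.

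The question asked of the 10 genes was how their transcripts differ between the diets. Pnpla3 fell on the ketogenic diet to 0.182 ± 0.131 CPM, against 2.95 ± 1.46 CPM on the control diet. It was the only one of the 10 members tested that was called, and the other 9 differed by less than a log2 of 0.5 in either direction. One call in 10 compares with the 3.78% of all genes that were called. The median log2 fold change of the 10 was -0.08, beside -0.0010 for all genes tested. In 1 of the 10, the diets did not overlap, as in 496 (3.54%) of all genes tested.

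**Figure D1:**
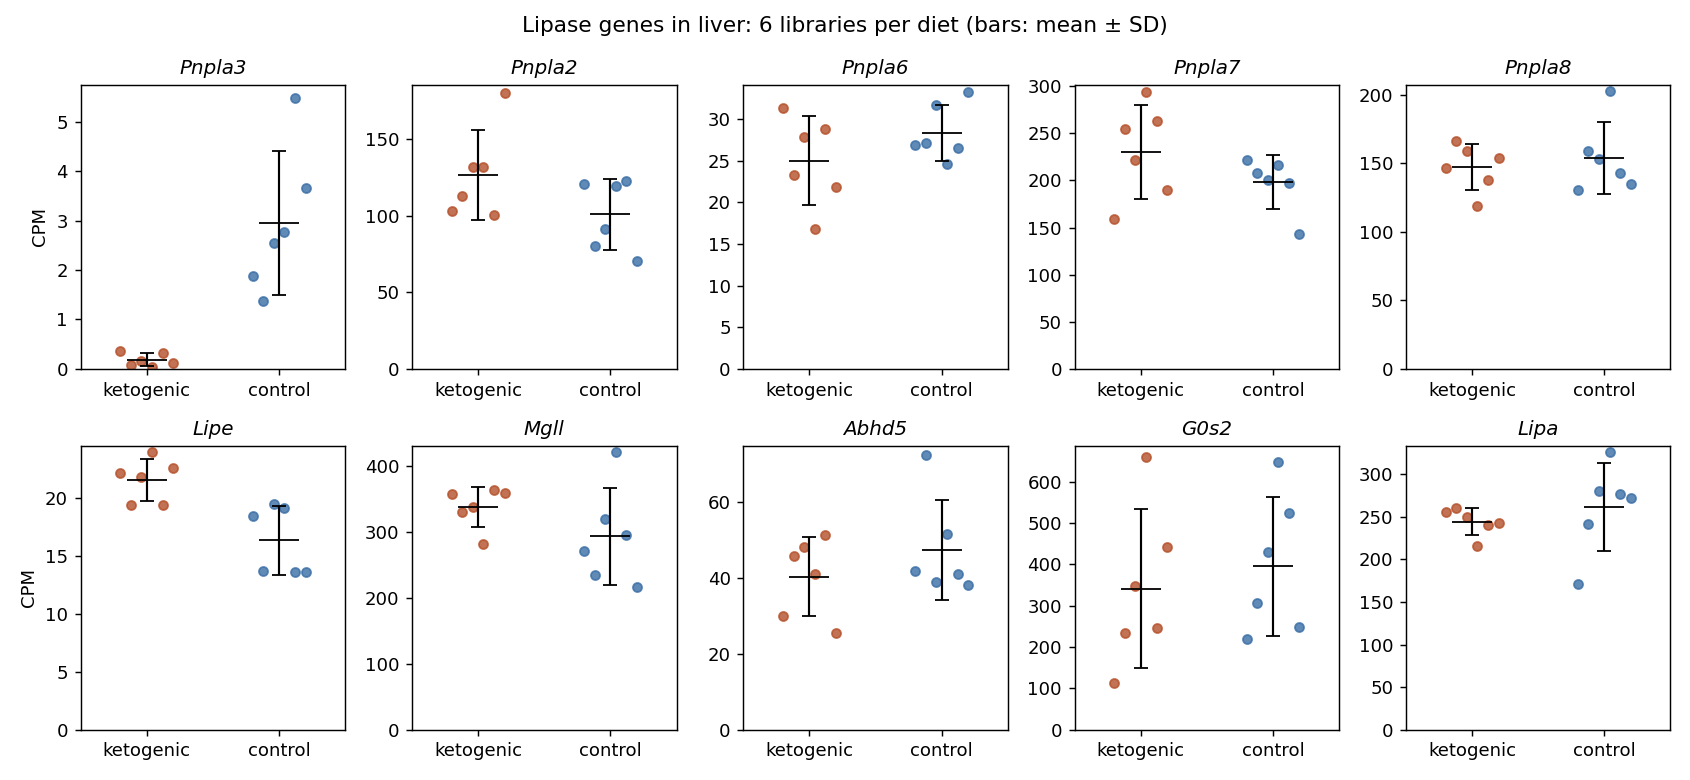
CPM of the 10 genes in each library, ketogenic diet left and control diet right, with one point per library and bars for mean ± SD (n = 6 per diet); each axis starts at 0. The diets are apart in Pnpla3 and overlap in the other 9 genes.

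Pnpla3 (ENSMUSG00000041653, chromosome 15, 84052038 to 84071437, plus strand, coordinates as deposited, with no build named for them) had few reads in any library. Ketogenic libraries 1 to 6 held 13, 3, 6, 1, 10 and 4 reads, against 61, 45, 76, 81, 182 and 104 reads in control libraries 1 to 6. Scaled to CPM, the ketogenic libraries ran from 0.0320 to 0.363 (median 0.145) and the control libraries from 1.37 to 5.47 (median 2.66). The highest ketogenic library thus lay below the lowest control library.

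The log2 fold change of Pnpla3 was -3.99 ± 0.46 (95% interval -4.97 to -3.00, adjusted p = 0.000306), or 15.8 times lower. Summed over libraries, 37 ketogenic reads stood against 549 control reads, which scaled to sequencing depth is 6.22% of the control level (exact 95% interval 4.33 to 8.68%, for counting error only). Within each diet it was the most variable of the 10 genes, with a coefficient of variation of 72.3% in ketogenic and 49.5% in control libraries. At 1 to 13 reads a library, counting error adds to the ketogenic spread, and its share was not computed. Leaving out any 1 library left the fold change between -4.30 and -3.71. In whole-liver RNA, fewer cells with a transcript and less of it per cell cannot be told apart. The lncRNA gene Gm49513, which overlaps Pnpla3 on the same strand, had 5 reads in all 12 libraries.

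**Figure D2:**
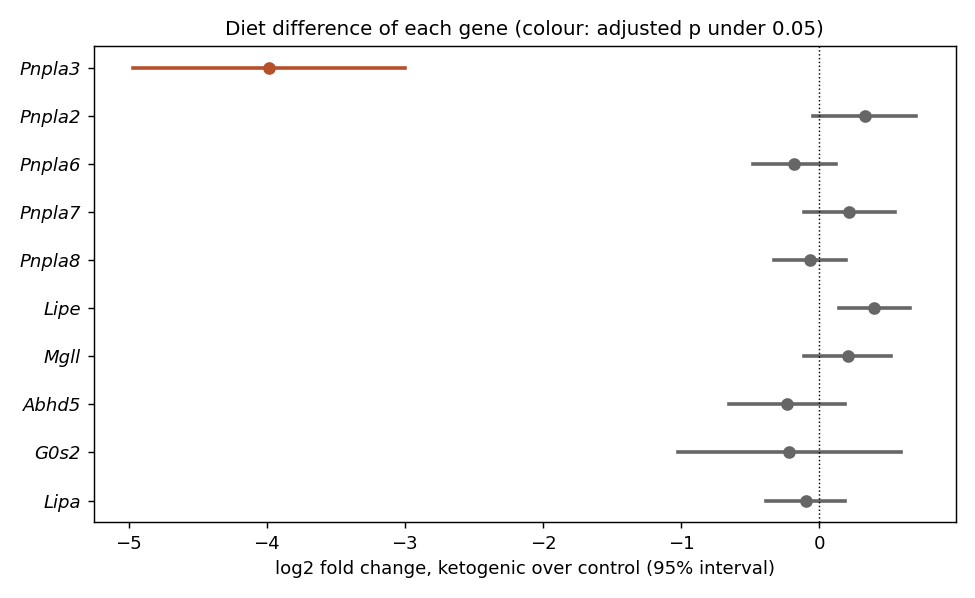
Log2 fold change, ketogenic over control, with its 95% interval for each of the 10 genes from edgeR's fit across all genes. The interval of Pnpla3, from -4.97 to -3.00, lies far from 0, and those of the other genes lie between -1.02 and 0.70.

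The next patatin-like gene along the chromosome was low on the ketogenic diet too. Pnpla5 (ENSMUSG00000018868, chromosome 15, 83996557 to 84007376, minus strand), whose protein is known as a triglyceride lipase of the same family, lies 44661 bases from Pnpla3. It had 2 reads in the 6 ketogenic libraries together, 1 each in ketogenic 4 and 5, against 34, 9, 22, 29, 79 and 15 reads in control 1 to 6. The summed ratio was 0.981% of the control level (exact 95% interval 0.118 to 3.59%, counting error only). Pnpla5 did not pass the filter on low counts. With no filter on low counts, it was called lower (adjusted p = 8.47e-06).

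Reads were also scarce for the lncRNA gene Gm33432, which lies between Pnpla5 and Pnpla3, with 1 ketogenic and 15 control reads in all (6.15% of the control level, interval 0.146 to 40.0%). On the other side of Pnpla3, only 5004 bases away, Samm50 codes for a protein of the mitochondrial outer membrane. Samm50 had 88.4 ± 16.3 CPM on the ketogenic and 93.4 ± 13.2 CPM on the control diet (log2 fold change -0.08 ± 0.13, adjusted p = 0.842). Parvb, which encodes the cytoskeletal protein parvin beta and lies 44806 bases away, had 5.28 ± 0.909 CPM on the ketogenic and 5.26 ± 0.881 CPM on the control diet (0.01 ± 0.15, adjusted p = 0.993). Parvg, a related parvin gene farther along, was at 2.34 ± 0.855 and 1.76 ± 0.485 CPM on the ketogenic and control diets (adjusted p = 0.471). Of the 4 neighbours listed, 3 were tested and 0 called, while Sult4a1 had too few reads for the filter, with 13 ketogenic and 33 control reads.

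**Figure D3:**
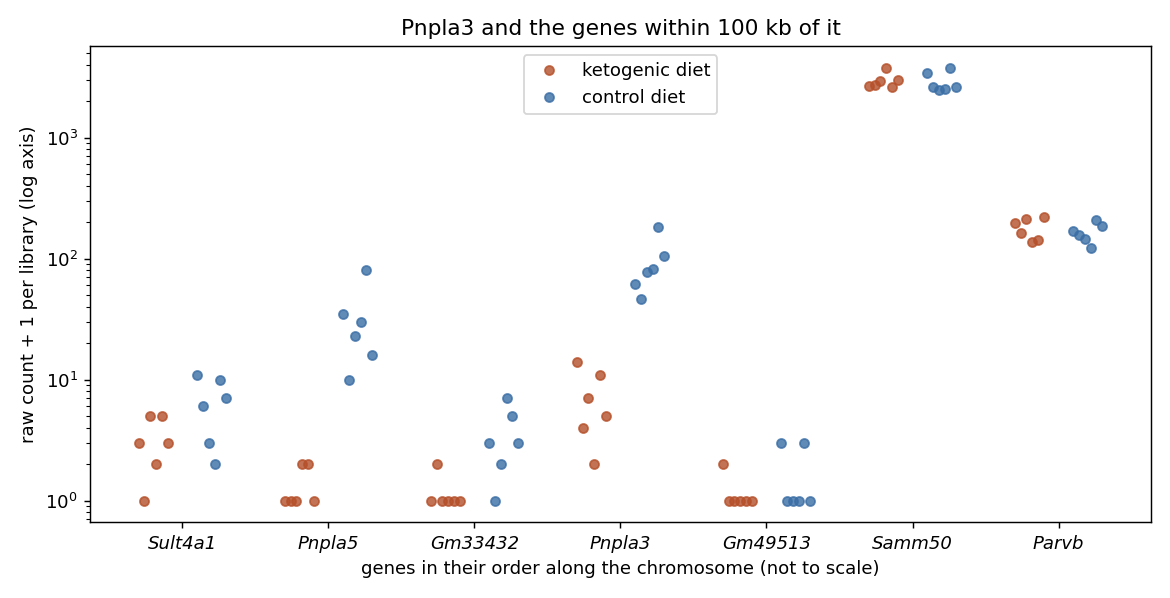
Raw counts plus 1 in each library, on a log axis, for the genes within 100 kb of Pnpla3 in their order on the chromosome, ketogenic diet left and control diet right in each pair. The control libraries lie above the ketogenic ones for Pnpla5 and Pnpla3, and the diets overlap for Samm50 and Parvb.

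Pnpla2 (ENSMUSG00000025509, chromosome 7, 141035111 to 141040656), which codes for ATGL, did not pass the threshold. It ran from 101 to 180 CPM (median 122) in ketogenic libraries and from 70.4 to 123 CPM (median 105) in control libraries. The means were 127 ± 29.4 CPM and 101 ± 23.1 CPM on the ketogenic and control diets, with a log2 fold change of 0.33 ± 0.17 (95% interval -0.05 to 0.70, adjusted p = 0.382). Ketogenic 6 was the highest library, and the diets overlapped between 101 and 123 CPM. The interval allows a rise of Pnpla2 by up to 0.70 but lies wholly above the fall seen in Pnpla3.

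Its activator Abhd5 (ENSMUSG00000032540, chromosome 9, 122180673 to 122210589) ran from 25.5 to 51.5 CPM (median 43.5) in ketogenic libraries, against 38.1 to 72.6 CPM (median 41.6) in control libraries. The log2 fold change was -0.23 ± 0.20 (interval -0.65 to 0.19, adjusted p = 0.637). Control 2 alone was above 60 CPM, and without it the fold change was -0.07. The inhibitor G0s2 (ENSMUSG00000009633, chromosome 1, 192954469 to 192955525) varied widely in each diet, from 112 to 660 CPM (median 298) in ketogenic and from 219 to 647 CPM (median 368) in control libraries. Its fold change of -0.21 ± 0.38 has a wide interval, from -1.02 to 0.59 (adjusted p = 0.856), so a change anywhere in that interval remains possible. G0s2 had the shortest exon length of the 10 genes, 871 bases, and its highest library was ketogenic 4. Without ketogenic 4 the fold change was -0.51 (adjusted p = 0.491). G0s2 overlaps Lamb3, which lies on the opposite strand and had 3298 reads against 140821 for G0s2 over all libraries.

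The CPM of inhibitor over enzyme, G0s2 over Pnpla2, was 2.62 ± 1.298 in ketogenic livers (range 1.09 to 5.01) and 3.92 ± 1.23 in control livers (range 1.81 to 5.41). That of activator over enzyme, Abhd5 over Pnpla2, was 0.337 ± 0.124 in ketogenic and 0.497 ± 0.211 in control livers. Both ratios overlapped between the diets and were not tested. The ratio of Pnpla3 to Pnpla2 did not overlap, at 0.000243 to 0.00351 in ketogenic and 0.0156 to 0.0520 in control livers.

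Lipe (ENSMUSG00000003123, chromosome 7, 25078952 to 25098135), the diglyceride lipase gene, came nearest to the threshold among the members not called. It ran from 19.4 to 24.0 CPM (median 21.99) in ketogenic libraries, against 13.6 to 19.5 CPM (median 16.1) in control libraries. Only the lower end of the ketogenic range touched the upper end of the control range. The means of Lipe were 21.6 ± 1.83 CPM on the ketogenic and 16.4 ± 2.96 CPM on the control diet, and the log2 fold change was 0.40 ± 0.12 (interval 0.14 to 0.66, unadjusted p = 0.00516 and adjusted p = 0.0899 from edgeR). DESeq2 called it (0.40, adjusted p = 0.0401), as did edgeR scaled by library size alone (0.48, adjusted p = 0.0442), and no fit with a library left out did (adjusted p 0.0738 to 0.180). The lncRNA gene 4732471J01Rik overlaps all of Lipe on the opposite strand, with 204 reads against 7377 for Lipe in all.

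Mgll (ENSMUSG00000033174, chromosome 6, 88701394 to 88805342), the monoglyceride lipase gene, ran from 282 to 363 CPM (median 347) in ketogenic and from 217 to 420 CPM (median 283) in control libraries. Its ketogenic libraries lay within the control range, with a coefficient of variation of 9.02% against 24.9% in control libraries. The log2 fold change of Mgll was 0.21 ± 0.15 (interval -0.11 to 0.52, adjusted p = 0.551). Lipa (ENSMUSG00000024781, chromosome 19, 34469718 to 34504874), the lysosomal lipase gene, was nearly level among ketogenic livers, at 216 to 260 CPM (median 247), against 171 to 326 CPM (median 275) in control livers. All ketogenic libraries of Lipa lay within the control range, and the log2 fold change was -0.10 ± 0.13 (interval -0.38 to 0.19, adjusted p = 0.798).

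Of the phospholipase members, Pnpla7 (ENSMUSG00000036833, chromosome 2, 24866045 to 24944069) ran from 160 to 294 CPM (median 238) in ketogenic and from 143 to 222 CPM (median 204) in control libraries (log2 fold change 0.22 ± 0.15, interval -0.11 to 0.55, adjusted p = 0.539). Its lowest library was control 6. Pnpla8 (ENSMUSG00000036257, chromosome 12, 44268153 to 44369315) ran from 119 to 166 CPM (median 150) in ketogenic and from 131 to 203 CPM (median 148) in control libraries (-0.07 ± 0.12, interval -0.33 to 0.20, adjusted p = 0.864). The 2 medians of Pnpla8 differed by less than the spread in either diet. Pnpla6 (ENSMUSG00000004565, chromosome 8, 3565384 to 3594267), known as neuropathy target esterase, ran from 16.9 to 31.4 CPM (median 25.6) in ketogenic and from 24.6 to 33.3 CPM (median 27.0) in control libraries (-0.18 ± 0.14, interval -0.48 to 0.12, adjusted p = 0.599). Its lowest library was ketogenic 4, and without that library the fold change was -0.09.

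Levels of different genes can be set side by side only per length, here as mean CPM per kilobase of merged exons in GENCODE M21, in which long alternative ends lower a value. On the ketogenic diet G0s2 stood highest at 391 ± 221, followed by Mgll at 66.6 ± 6.01, Pnpla2 at 42.0 ± 9.72, Lipa at 36.0 ± 2.31 and Pnpla7 at 30.7 ± 6.65. Below these lay Pnpla8 at 10.4 ± 1.19, Abhd5 at 6.77 ± 1.75, Lipe at 3.67 ± 0.310, Pnpla6 at 2.58 ± 0.549 and Pnpla3 at 0.117 ± 0.0848. The libraries of Mgll, Pnpla2, Lipa and Pnpla7 overlapped each with the next in this order, as did those of Pnpla8 and Abhd5. On the control diet, Pnpla3 was also last, at 1.91 ± 0.944, but its libraries there overlapped those of Lipe at 2.78 ± 0.502. On the ketogenic diet they did not overlap those of the next gene up, Pnpla6.

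The genes whose pattern was most like that of Pnpla3 were sought by Pearson's r of log2 CPM among the 12275 genes that averaged 1 CPM or more. Over the 12 libraries the closest was Scd1 (r = 0.972, Spearman's rho = 0.937), which encodes the main stearoyl-CoA desaturase of liver, followed by Kcp (r = 0.941, rho = 0.874), Enpep (r = 0.933, rho = 0.874), Gm2a (r = 0.932, rho = 0.874) and Acot11 (r = 0.931, rho = 0.916). Enpep codes for an aminopeptidase that acts on angiotensin, Gm2a for the lysosomal GM2 activator protein and Acot11 for an acyl-CoA thioesterase. All 5 fell on the ketogenic diet with no overlap, so these values carry the diet difference itself. They describe 12 libraries and were picked as the highest of many.

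Scd1 ran from 389 to 1516 CPM in ketogenic libraries and from 4537 to 21639 CPM in control libraries. Ketogenic 4 was the lowest and ketogenic 1 the highest ketogenic library in both Scd1 and Pnpla3. Within a diet, over 6 libraries each, r between Scd1 and Pnpla3 was 0.973 in ketogenic and 0.592 in control livers. After the mean of each diet was taken off, the 5 closest genes over the 12 libraries were Zfp280d (r = 0.884), Lrig3 (r = 0.859), Utp20 (r = 0.851), Eps15l1 (r = 0.850) and Gstcd (r = 0.845). None of these 5 was called between the diets, with adjusted p from 0.0776 to 0.877. In all 5, as in Pnpla3, the lowest ketogenic library was ketogenic 4, in which long transcripts ran low. The exon length of Pnpla3 is 1548 bases, against 5401 to 19017 bases in the 5 genes. The part of ketogenic 4 in these r values was not tested. Counting error in the ketogenic reads of Pnpla3 enters all of these values.

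**Figure D4:**
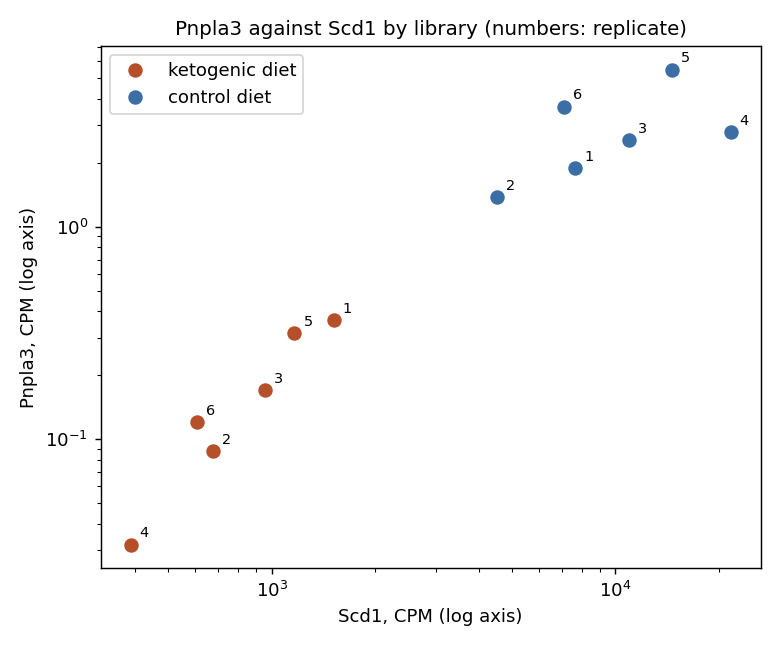
Pnpla3 against Scd1, CPM on log axes, one point per library with its replicate number, ketogenic and control diet in 2 colours. The ketogenic libraries lie below 0.37 CPM of Pnpla3 and at or below 1516 CPM of Scd1, apart from the control libraries in both genes.

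Among pairs of members, with the diet means taken off, Pnpla3 ran closest with Pnpla6 (r = 0.69 over 12 libraries) and most opposite to Pnpla7 (r = -0.53). Pnpla6 and G0s2 ran opposite (r = -0.73), and Pnpla8 ran with Mgll (r = 0.69) and with Lipa (r = 0.67). The 45 pairs share the same libraries, including ketogenic 4, in which Pnpla6 was lowest and G0s2 highest, and are given as a description.

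Genes known to answer to carbohydrate and insulin in liver, the setting in which Pnpla3 is known to be switched on, held 6 that fell on the ketogenic diet. All 15 listed were tested: 6 fell, 0 rose and 9 were not called, beside 1.44% of all genes called lower. The median log2 fold change of the list was -0.80. Beside Scd1, the pyruvate kinase gene Pklr fell to 134 ± 18.5 CPM on the ketogenic diet, against 424 ± 90.6 CPM on the control diet, and the ketohexokinase gene Khk fell by 1.33 ± 0.16 on the log2 scale. The elongase gene Elovl6 fell by 0.94 ± 0.20 (adjusted p = 0.0174) and G6pdx, of the pentose phosphate pathway, by 0.80 ± 0.18 (adjusted p = 0.0231). G6pdx was no longer called when ketogenic 2, ketogenic 5 or control 5 was left out, with adjusted p between 0.00342 and 0.0550 when single libraries were dropped.

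Neither regulator gene known to act on Pnpla3 passed the threshold. Srebf1 had 178 ± 57.3 CPM on the ketogenic and 319 ± 185 CPM on the control diet (-0.84 ± 0.35, adjusted p = 0.227), and Mlxipl, which encodes ChREBP, had 127 ± 33.0 CPM on the ketogenic and 189 ± 18.8 CPM on the control diet (-0.57 ± 0.16, adjusted p = 0.0616). Among the 6 control livers, r with Pnpla3 was 0.69 for Srebf1 and 0.06 for Mlxipl, as a description. Among the 6 ketogenic livers it was 0.63 for Srebf1 and 0.47 for Mlxipl. The 95% interval of the fold change of Srebf1 ran from -1.59 to -0.10 and that of Mlxipl from -0.91 to -0.23. Both intervals, which are not adjusted for the number of genes, lie below 0. These are transcript levels, and the activity of either protein was not measured here.

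Among 15 genes of the fasting and FOXO response, all tested, 1 was called higher, 0 lower and 14 neither, beside 3.78% of all genes called, and their median log2 fold change was 0.04. Sesn1, a stress gene known as a FOXO target, rose to 19.4 ± 1.31 CPM on the ketogenic diet, against 12.3 ± 2.06 CPM on the control diet (0.66 ± 0.12, adjusted p = 0.00550). Foxo3 was at 0.41 ± 0.13 (adjusted p = 0.109) and the cell cycle inhibitor gene Cdkn1a at -1.44 ± 0.43 (adjusted p = 0.0899). Pdk4, a kinase gene that rises in fasting, was spread over 10.02 to 243 CPM in ketogenic libraries and 4.41 to 313 CPM in control libraries. The 3 control libraries with the highest Pdk4, control 4, 5 and 6, also had the 3 highest values of Pnpla3, between 2.77 and 5.47 CPM, and in the ketogenic libraries the order differed. Pdk4 (log2 fold change -0.30 ± 0.99, adjusted p = 0.932) is 1 gene picked from this list of 15. The comparison of its order with that of Pnpla3 was not planned, and the part of feeding state in the level of Pnpla3 was not tested.

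Among other hydrolases of neutral lipid, 22 of the 25 listed were tested and Ces1c alone was called, lower, beside 1.44% of all genes. Pnpla5, described above, is also on this list and was called lower only with no filter on low counts. The remaining 21 tested were not called, and the median log2 fold change was 0.08. Ces1c, a carboxylesterase gene whose protein is known in mouse plasma, fell to 1710 ± 276 CPM on the ketogenic diet, against 2484 ± 195 CPM on the control diet (-0.54 ± 0.12, adjusted p = 0.0211). The ketogenic libraries of Ces1c lay at 1469 to 2229 CPM and the control libraries at 2246 to 2691 CPM. Dropping ketogenic 2, 3 or 6 ended the call of Ces1c (adjusted p 0.00651 to 0.0581 when single libraries were dropped), as did scaling by library size alone (adjusted p = 0.0505). The Ces1 genes are near copies that may share reads. Ces2a was at -0.51 ± 0.15 (adjusted p = 0.0734) and the monoglyceride hydrolase gene Abhd6 at 0.55 ± 0.17 (adjusted p = 0.0860).

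Among regulators of lipolysis and lipid droplets, 24 of 28 listed genes were tested: 2 were called higher, beside 2.34% of all genes, 0 lower and 22 neither, with a median log2 fold change of 0.09. Cidec, a protein that joins lipid droplets, rose to between 26.4 and 190 CPM in ketogenic libraries, against 4.68 to 15.1 CPM in control libraries (3.58 ± 0.48, adjusted p = 0.00135). Abhd4, a relative of Abhd5 that acts on N-acyl phospholipids, rose to 56.7 ± 4.46 CPM on the ketogenic diet, against 40.6 ± 3.86 CPM on the control diet (0.48 ± 0.09, adjusted p = 0.00708). Aqp9, the main glycerol channel of liver, was at 0.41 ± 0.12 (adjusted p = 0.0838). Without ketogenic 4 or without control 4, 4 of this list were called higher. Of all genes, 761 of 14118 were called in either direction without ketogenic 4, and 491 of 14143 without control 4. Aqp7 and Cidea did not pass the filter on low counts. With no filter, Aqp7, another glycerol channel best known from fat cells, was called higher (adjusted p = 0.0240), with 8 to 214 reads in ketogenic and 1 to 5 reads in control libraries, and so was Cidea (adjusted p = 0.0198). Cidea had its highest value in ketogenic 3, at 1.501 CPM, where the fat cell marker gene Cfd was also highest, at 29.2 CPM. Fabp4, another fat cell marker gene, was instead highest in ketogenic 4, at 30.7 CPM against 12.1 CPM in ketogenic 3. Aqp7 also had its highest value in ketogenic 4, at 6.84 CPM. Ketogenic 3 held 1 read of Adipoq, 2 of Plin1 and 0 of Retn. The part of fat cells in these results was not tested.

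None of 25 genes of lysosomes and lipophagy was called by edgeR (median 0.07), 6 had an unadjusted p under 0.05, and DESeq2 called 1. The smallest p-values in this setting of Lipa were those of Hexa (0.61 ± 0.19, adjusted p = 0.0955), Mcoln1 (0.23 ± 0.08, adjusted p = 0.147) and Neu1 (0.32 ± 0.11, adjusted p = 0.155).

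**Figure D5:**
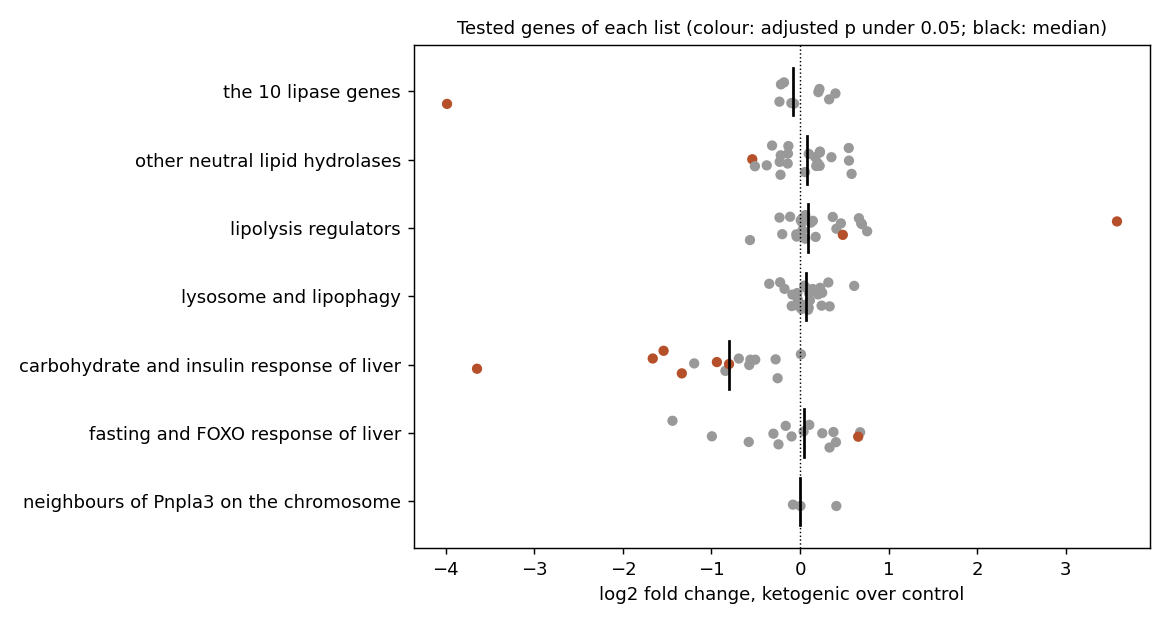
Log2 fold change, ketogenic over control, of each tested gene in the 10 lipase genes and 6 further lists, with the median as a black bar and called genes in colour. Medians lie between -0.08 and 0.09 except in the carbohydrate and insulin list, at -0.80.

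Cell type markers were read because Lipe, Pnpla2, G0s2 and Mgll are strongly expressed in fat cells. All 8 hepatocyte markers were tested, and 1 of them, Cyp2e1, was called higher, with summed levels of 77166 to 100365 CPM in ketogenic and 78724 to 116703 CPM in control livers. Of 8 fat cell markers, 7 were in the table and their summed level was 8.85 to 42.9 CPM in ketogenic and 5.89 to 12.2 CPM in control livers, mostly from Fabp4 and, in ketogenic livers, Cfd. The defining markers Adipoq, with 0 or 1 read a library, and Plin1, with 0 to 3 reads, were at or near 0 in both diets. Of this list only Fabp4 and Cfd passed the filter on low counts, and Cfd was called higher on the ketogenic diet, while Cidea, also on the list, was called higher with no filter. Of the 8 stellate cell markers 0 were called, with summed levels of 386 to 750 CPM in ketogenic and 370 to 820 CPM in control livers. The 8 Kupffer cell markers, of which 0 were called, summed to 399 to 657 CPM in ketogenic and 321 to 594 CPM in control livers. Of the markers tested, 8 of endothelial cells, 7 of bile duct cells, 8 of T and B cells, 3 of red cells and 1 of exocrine pancreas, 0 were called, and the summed levels of each of these lists overlapped between the diets.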

How the data were processed

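RNA of 12 mouse livers, 6 per diet, was sequenced from libraries made with a NEBNext Ultra kit, per the labels. The authors deposited a table of raw read counts per gene, whole numbers with no normalization, with symbols and coordinates. Tools named in the submitters' processing notes, without roles, are Cufflinks, StringTie 1.3.4d, HISAT2 2.1.0 and fastp 0.19.3. How reads were assigned to genes, on which strand, annotation and build, is not stated there. GENCODE M21 (GRCm38) held 26914 of the gene IDs, 554 of them with the table's start and end, so no build is assigned to its coordinates and reads of overlapping or antisense genes may be shared. Whether amplification copies were taken out before counting is not known here, and intervals on reads cover counting error only. Within each diet all pairs of libraries differed beyond sampling noise (chi-square over its degrees of freedom at least 40.8).

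Genes were filtered with filterByExpr, scaled with TMM factors and tested with edgeR 4.0.16 (robust quasi-likelihood fit, diet as the only term) in R 4.3.3. Calls were made at 0.05 after Benjamini-Hochberg adjustment over all 13995 genes tested. The SE is the fold change divided by the square root of F. CPM use TMM-scaled library sizes, and log2 CPM a prior count of 2. Exon lengths came from GENCODE M21 by gene ID and promoters from RefSeq (GRCm38.p6), where all 10 members matched. The members and lists were chosen with earlier results of these data known, so no list was tested and no p adjusted over a list. Genes named are the members, the called genes and the 3 smallest p-values of each list, except for 1 called gene not reported here, and the 5 genes most like Pnpla3 by each measure. Pnpla5, Gm33432, Aqp7, Cidea, Pdk4, Srebf1 and Mlxipl are named beside these, Pnpla5 and Gm33432 after their values were seen. The fit was tested on simulated data. Alternatives were DESeq2 1.42.0, limma-voom (limma 3.58.1), RLE factors, library size only, no filter, a minimum of 1 CPM in 6 libraries, a threshold of 0.01, the replicate number as a block, removal of each library's trend on exon length (a spline with 4 degrees of freedom), and each library left out.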

Additional observations from a re-analysis of the deposited data

Results flagged for a closer look

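Among the 10 members in 2 diets, 1 of 20 groups of 6 libraries held a value set apart from the rest, and chance alone gives about 1 in 20. Pnpla7 was at 143 CPM in control 6, and the gap to the next control library was 0.691 of the range of that group. Without control 6, the log2 fold change of Pnpla7 was 0.14 (adjusted p = 0.72), and it was called neither with nor without that library.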

How the results depend on the processing

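Pnpla3 kept its direction and its call in all 21 alternatives (log2 fold change -4.30 to -3.71, adjusted p 1.60e-16 to 0.00337). Pnpla2, Pnpla6, Pnpla7, Mgll, Abhd5, G0s2 and Lipa were not called in any of the 21. Lipe was called under DESeq2 (0.40) and with library size only (0.48). Pnpla8 turned to 0.010 with library size only, 0.011 with the length trend removed and 0.028 without control 4 (-0.11 to 0.028 with a library left out), far under its SE. The cause was not tested. In place of 529 genes, DESeq2 called 1028, an adjusted p under 0.01 gave 197, and leaving out a library gave 319 to 761. The lowest of these were 319 without control 3 and 336 without ketogenic 6. Of all genes, 426 of 27105 were called with no filter. With limma-voom 496 of 13995 were called, and with the length trend removed 697 of 13995. Of the 22 other hydrolases tested, 1 called, 4 were called under DESeq2, 0 at an adjusted p under 0.01 and 1 to 2 with a library left out. With no filter, which tests all 25, 2 were called, Ces1c and Pnpla5. Of the lipolysis regulators, 2 called, 4 were called with no filter, which adds Aqp7 and Cidea, and 2 to 4 with a library left out. Of the lysosome genes, 0 called, 1 was called under DESeq2 and 1 with the length trend removed. Of the carbohydrate genes, 6 called, 3 passed an adjusted p under 0.01. Of the fasting genes, 1 called, 2 were called under DESeq2, limma-voom and removal of the length trend, and 1 to 2 with a library left out. None of the 4 listed neighbours, which do not include Pnpla5 or Gm33432, was called in any fit that tested it.

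Deviations of same-numbered livers from their diet means had r of -0.291 to 0.336 over 6 numbers. These 6 values cannot show whether the numbers pair the samples. With the replicate number as a block, 268 genes were called, 175 higher and 93 lower, with 0 of the other hydrolases and 1 lipolysis regulator, and Pnpla3 stayed called. In 2 of 6 ketogenic libraries the best match was the control of the same number. Depth limits Pnpla3 and Pnpla5, whose ketogenic libraries hold at most 13 and 1 reads.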
